A study of Mus musculus with 8 samples.

Results

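The epithelium of the colon was compared with that of the cecum in mice labelled Abx_14D, an antibiotic-treated group, by single-cell RNA-seq. The cells were those of the 8 loaded samples whose names hold Abx_14D, 4 of colon and 4 of cecum, each barcode with at least 500 transcripts. That gave 6148 cells, 3852 from colon and 2296 from cecum, of 15916 in the whole series. The labels say neither what 14D stands for nor which antibiotics, strain and ages were used. Per the labels' protocols, the epithelium was released with EDTA and dissociated with dispase and DNase, and cells were pooled by condition. They were then sorted as EPCAM-positive and CD45-negative, with CD44-positive (proliferative) and CD44-negative (differentiated) cells taken 1:1. All 8 samples carry these shared steps, and no label says that the numbers 1 to 4 are separate animals, so p-values measure the spread between these samples. Germ-free (GF) colon and cecum, 5851 cells in 8 more samples, are set beside the antibiotic-treated pair at the end. The 2 treatments share no samples.

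Colon samples 1 to 4 held 1886, 775, 542 and 649 cells, and cecum samples 1 to 4 held 445, 356, 971 and 524. Transcripts per sample (unique molecules) ran from 6613124 to 30127065 in colon and from 8068659 to 15414170 in cecum. The median share of mitochondrial transcripts was between 0.213% and 0.386% in the colon samples, and 0.224, 0.340, 0.597 and 0.655% in cecum samples 1 to 4. Epcam, the surface protein used in the sort, was at 1141 to 1245 CPM, the counts scaled to a sum of 1000000 per sample, in colon and at 1238 to 2030.2 CPM in cecum. Of 22 immune markers, 5 were at 0 in all 8 samples, and the list summed to at most 51.9 CPM in any sample. Of 10 Paneth cell markers, 6 were at 0 in all 8 samples, and the list summed to at most 3.78 CPM. Xist and Uty separated samples 1 and 2 from samples 3 and 4 in both tissues, so each tissue held the same pattern. No barcode was shared between loaded samples. In the samples low for Uty, its level reached 0.877% of that in the samples high for it, and of the 23 leading genes below only Hoxb13 and Mptx1 had a low tissue under that share of their high tissue.

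The cecum is the blind pouch at the start of the large intestine, and the colon follows it. Along this axis epithelial cells keep a record of position in homeobox transcription factors, the Hox genes among them, whose posterior members mark the most distal gut. The absorptive colonocytes of both organs take up salt, water and the short-chain fatty acids that bacteria make, while goblet cells secrete the mucus that keeps bacteria from the surface. New cells of every class come from dividing progenitors at the crypt base.

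Counts of all cells of a sample were summed, and 13945 genes were tested between colon and cecum. In colon 2580 genes were higher (18.5% of those tested) and 2296 were lower (16.5%), at an adjusted p under 0.05. Cecum samples 3 and 4 and 1 of the GF cecal samples in the same fit had more than 0.5% mitochondrial transcripts, and without these high-mitochondrial samples 2861 genes in all were called. Cecum samples 3 and 4 were also the cecal samples high for Uty, at 178 and 179 CPM. Cecum samples 1 and 2, which were kept, had 0.969 and 1.24 CPM. The mitochondrial share and the Uty pattern cannot be told apart in this alternative. The genes highest in colon included a posterior Hox gene, secreted and membrane proteins and enzymes that build glycans. Levels below are CPM of the summed counts, means are given ± SD over 4 samples, and differences are log2 fold changes of colon over cecum ± SE. A positive value means higher in colon.

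Hoxb13, the most posterior gene of its Hox cluster, was at 29.4, 48.1, 49.4 and 54.8 CPM in colon samples 1 to 4 and at 0.121, 0.124, 0.454 and 0.359 CPM in cecum samples 1 to 4. The groups did not overlap, and the log2 fold change was 7.21 ± 0.32 (adjusted p = 7.28e-11). Mptx1, a secreted mucosal pentraxin, was at 61.1, 377, 471 and 317 CPM in colon and at 1.57, 3.59, 1.82 and 3.47 CPM in cecum. Colon sample 1 was the low one of its group and still lay above every cecal sample (log2 fold change 6.91 ± 0.61, adjusted p = 2.04e-07). Nxpe2, a member of the neurexophilin and PC-esterase family, was at 125, 149, 168 and 99.2 CPM in colon against 1.21, 0.868, 1.36 and 1.31 CPM in cecum. Its difference was even across samples (log2 fold change 6.79 ± 0.23, adjusted p = 2.95e-12). Thbs4, the matrix glycoprotein thrombospondin-4, averaged 94.1 ± 30.5 CPM in colon and 1.06 ± 0.282 CPM in cecum. B3gnt7, which adds N-acetylglucosamine to glycan chains, averaged 151 ± 44.6 CPM and 1.95 ± 0.387 CPM. Both differed by more than 6 on the log2 scale, at 6.49 ± 0.32 and 6.29 ± 0.28.

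The other 7 leading colon genes were Atp12a (the catalytic subunit of the non-gastric proton-potassium pump), Sval1, Tgm3 (a transglutaminase, which cross-links proteins), Gm16341, Rgs17 (a regulator of G-protein signalling), Vtcn1 (an immune checkpoint ligand) and Dnah5 (a dynein heavy chain). Their log2 fold changes ran from 5.67 for Dnah5 to 6.68 for Atp12a, with adjusted p values up to 1.62e-05, and none of them overlapped between the groups. Dnah5 was the least even, at 8.53, 16.6, 48.8 and 19.3 CPM in colon samples 1 to 4 against 0.969, 0.620, 0.130 and 0.239 CPM in cecum. Without colon sample 3 its log2 fold change was 5.03. Values of 2 more genes moved by more than 1.5 times with a single sample: Atp12a was 7.33 without cecum sample 2, and Gm16341 was 6.84 without cecum sample 3.

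The genes highest in cecum included surface proteins, a carbonic anhydrase and enzymes that modify glycolipids. Car1, the cytosolic carbonic anhydrase 1, was the most abundant of these genes, at 2138, 1805, 7640.1 and 6465 CPM in cecum and 302, 327, 326 and 367 CPM in colon. Cecum samples 3 and 4 were well above samples 1 and 2, and all 4 were above the colon (log2 fold change -3.77 ± 0.48, adjusted p = 1.41e-05). Ly6m, of the Ly6 family of surface proteins, was at 5.33, 13.8, 69.9 and 46.7 CPM in cecum and at 0.266, 0.457, 0.302 and 0.435 CPM in colon. Among these genes it had the largest fitted difference towards cecum, -6.6 ± 0.79 (adjusted p = 7.69e-06), which was -5.95 without cecum sample 3.

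St3gal5, which makes the ganglioside GM3, averaged 262 ± 30.8 CPM in cecum and 14.9 ± 9.61 CPM in colon. Gal3st2c, a galactose sulfotransferase with close paralogues among which reads may be split, averaged 378 ± 92.0 CPM and 22.0 ± 5.88 CPM. Slc37a2, a sugar-phosphate transporter of the endoplasmic reticulum, averaged 614 ± 56.6 CPM and 36.6 ± 15.4 CPM. These 3 genes were near -4.10 on the log2 scale and did not overlap between the tissues. The other 6 leading cecal genes were Adamts18 (a secreted metalloprotease), Clca4a, Tmigd1, 9130221F21Rik, Abca12 (a lipid transporter) and Muc16 (a membrane mucin), with log2 fold changes from -5.12 for Adamts18 to -3.93 for Muc16. Without colon sample 1 the difference of 3 of these genes grew by more than 1.5 times, to -5.53 for 9130221F21Rik, -4.69 for St3gal5 and -4.72 for Muc16. Colon sample 1 was the colon sample nearest to the cecal mean for 7 of the 12 leading colon genes and for 5 of the 11 leading cecal genes.

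Leading genes formed 2 pairs of neighbours in the genome, chosen after their values were seen, and the promoters of these 4 genes are printed because each pair points the same way. Gm16341 and B3gnt7, both higher in colon, start 1451 bases apart on chromosome 1 and are read in opposite directions. 9130221F21Rik and St3gal5, both higher in cecum, start 55080 bases apart on chromosome 6, also in opposite directions. The counting is not stated to use strand, so reads of Gm16341 and of an overlapping transcript could not be told apart. Sequences are from RefSeq on GRCm38.p6, a different build from the mm39 of the counts, and run 5′ to 3′ on the gene's strand from 250 bases before to 50 bases after the start. Of the 23 leading genes, 18 had such a promoter (10 colon and 8 cecal). Capitals mark a match to one of the 4 motifs named after the sequences.
Gm16341, chr1:86301721-86302020, minus strand: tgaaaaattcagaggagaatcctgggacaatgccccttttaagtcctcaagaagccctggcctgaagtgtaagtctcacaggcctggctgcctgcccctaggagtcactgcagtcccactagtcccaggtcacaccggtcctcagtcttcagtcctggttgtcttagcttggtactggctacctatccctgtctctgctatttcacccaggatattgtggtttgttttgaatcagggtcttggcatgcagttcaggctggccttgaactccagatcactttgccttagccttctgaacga
B3gnt7, chr1:86302971-86303270, plus strand: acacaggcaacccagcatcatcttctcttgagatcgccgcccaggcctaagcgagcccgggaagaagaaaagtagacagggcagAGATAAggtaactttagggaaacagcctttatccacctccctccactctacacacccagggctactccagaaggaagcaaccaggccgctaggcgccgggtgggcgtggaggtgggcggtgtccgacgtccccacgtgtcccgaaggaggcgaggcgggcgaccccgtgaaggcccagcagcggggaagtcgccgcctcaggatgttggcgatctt
9130221F21Rik, chr6:72042479-72042778, minus strand: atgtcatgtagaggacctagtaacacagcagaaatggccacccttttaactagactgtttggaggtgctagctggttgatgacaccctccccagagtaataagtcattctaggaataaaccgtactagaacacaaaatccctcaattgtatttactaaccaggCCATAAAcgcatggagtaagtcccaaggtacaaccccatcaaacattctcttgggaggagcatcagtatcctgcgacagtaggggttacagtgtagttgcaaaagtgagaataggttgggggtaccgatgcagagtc
St3gal5, chr6:72097358-72097657, plus strand: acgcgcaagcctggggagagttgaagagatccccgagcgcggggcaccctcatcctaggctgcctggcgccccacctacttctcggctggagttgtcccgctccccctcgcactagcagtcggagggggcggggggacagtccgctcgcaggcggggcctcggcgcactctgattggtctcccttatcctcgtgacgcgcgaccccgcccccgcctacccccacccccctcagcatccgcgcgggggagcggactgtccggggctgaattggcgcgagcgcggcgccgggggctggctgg
The 4 short motifs were searched for on both strands in windows of 300 bases. The GATA motif AGATAA stood in the B3gnt7 promoter at position -166, with the start as 0, and in 2 of 10 colon and 1 of 8 cecal promoters, against 11.4% of all 27025 promoters. The caudal-type motif CCATAAA, of the kind bound by the intestinal factor CDX2, stood in 9130221F21Rik at -87, and in 1 of 10 colon and 1 of 8 cecal promoters, against 2.76% of all. CAATAAA, a posterior HOX-type motif, was in 1 of 10 colon and 0 of 8 cecal promoters against 4.84% of all. No promoter of these genes held matches of more than 1 of the motifs, so none overlapped. TCGTAAA, a second posterior HOX-type motif, was in 0 of the 18 promoters against 0.625% of all. No motif was found in the windows of Gm16341 and St3gal5.

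The Hox genes code for the homeobox factors that set position along the body. Of 39 listed in the file, 24 were tested over all cells, and the ones called there were at the 2 ends of the family. All 3 tested members of paralogue group 13 were higher in colon: Hoxb13 as above, Hoxd13 by 6.62 ± 0.43 and Hoxa13 by 2.87 ± 0.34. Hoxd13 was at 11.7, 19.1, 19.4 and 12.2 CPM in colon samples 1 to 4 and at 0, 0.124, 0.260 and 0.120 CPM in cecum, with a log2 fold change of 7.41 without cecum sample 3. Hoxa13 was detected in both tissues, at 13.7 ± 2.44 CPM and 1.84 ± 0.393 CPM. Hoxd11 had 438 counts in colon against 3 in cecum, a depth-scaled ratio of 103 (exact 95% interval 35 to 501, counting error only). Hoxd10 had 121 counts in colon and 0 in cecum, so it was at least 28.4-fold higher taking 3 counts in cecum as the upper limit.

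The other 15 did not pass the test: Hoxa2, Hoxa4, Hoxd3 and Hoxd4, all 9 tested members of paralogue groups 5 to 9 (Hoxa5, Hoxb5, Hoxa6, Hoxb6, Hoxa7, Hoxb7, Hoxb8, Hoxa9 and Hoxb9), and Hoxa10 and Hoxa11. Hoxb6, the most abundant, averaged 259 ± 48.1 CPM in colon and 298 ± 57.4 CPM in cecum (adjusted p = 0.326). Hoxb9 averaged 86.8 ± 10.1 CPM and 90.4 ± 10.2 CPM (adjusted p = 0.729). At the anterior end Hoxb2, Hoxb3 and Hoxb4 were lower in colon, at -1.31 ± 0.38, -0.59 ± 0.19 and -0.64 ± 0.18, and Hoxa3 was higher by 0.36 ± 0.12. Each of these 4 calls was lost under at least 1 alternative. Hoxb2 was lost without cecum sample 1 (adjusted p = 0.0530). Hoxb3 was lost without cecum sample 2, colon sample 3 or colon sample 4 (adjusted p from 0.0515 to 0.0878). Hoxa3 was lost when cecum sample 3 or 4, or colon sample 1 or 3, was left out (adjusted p from 0.0645 to 0.0891) and with no filter on low counts (0.0555). Without the high-mitochondrial samples Hoxa3 and Hoxb4 were lost (adjusted p = 0.228 and 0.0866). In the sums over all cells 6 of 24 were higher and 3 lower. Within the goblet-like and undifferentiated classes gated below, 7 of 19 and 6 of 21 were lower in colon, and 4 were higher in each. Of all genes 6.41% and 12.6% were lower there. Without the high-mitochondrial samples 3 Hox genes were lower in each of these classes. In dividing cells 3 of 20 were lower and 4 higher, and in absorptive-like cells 0 of 15 were lower and 3 higher.

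**Figure D1:**
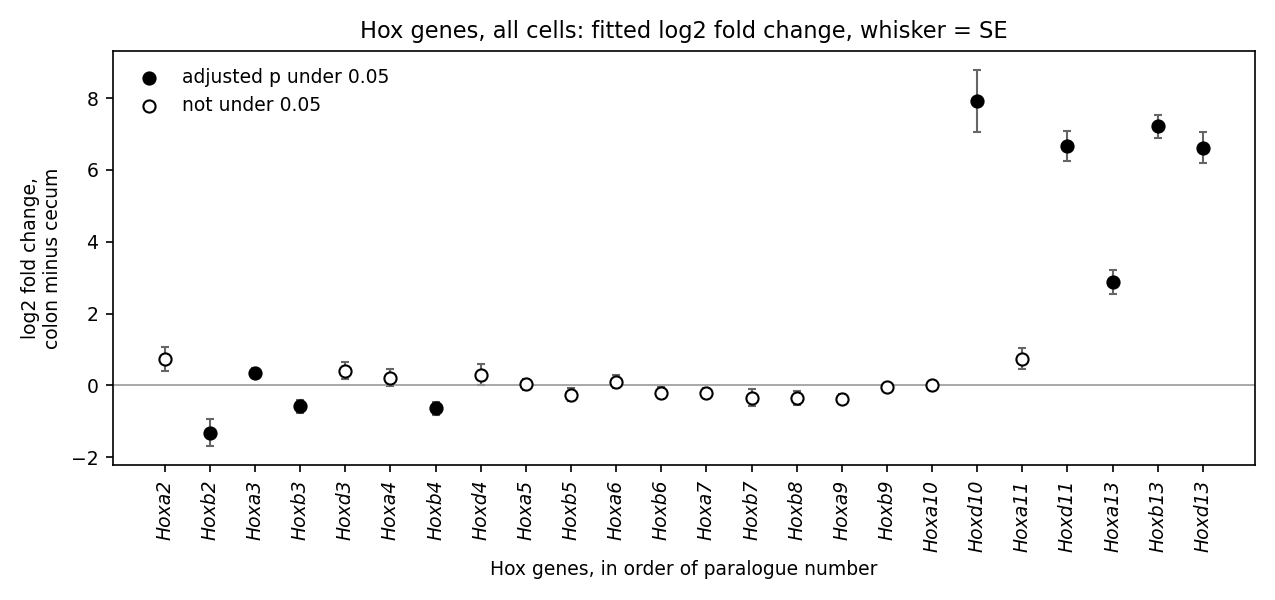
Fitted log2 fold change of colon over cecum (y axis) with its SE for the 24 tested Hox genes, in order of paralogue number (x axis), filled where the adjusted p was under 0.05. The largest differences stand at the posterior end; the point of Hoxd10, with 0 counts in cecum, depends on the prior count and is no estimate of its fold.

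Among 27 other regional transcription factors, 7 were higher and 7 lower in colon, with 4 lower without cecum sample 3 and 3 without the high-mitochondrial samples. Nr5a2, an orphan nuclear receptor of gut and liver, averaged 419 ± 35.5 CPM in colon and 111 ± 17.5 CPM in cecum (log2 fold change 1.93 ± 0.11, adjusted p = 1.6e-09). Osr2, a zinc-finger factor, averaged 41.3 ± 5.65 CPM and 11.6 ± 2.46 CPM (1.83 ± 0.22). Of 21 genes listed as distal colon, 10 were higher and 7 lower in colon (3 lower without the high-mitochondrial samples; median log2 fold change 1.10). Of 25 listed for the proximal colon and cecum, 6 were higher and 11 lower (median -0.61). The median over all genes tested was 0.018. Wfdc2, a secreted protein of the whey acidic protein family listed as distal, was at 43.2 ± 10.2 CPM against 2.78 ± 1.6 CPM. Nxpe4, listed with the proximal genes, was higher in colon instead, by 4.43 ± 0.34, and by 5.10 without cecum sample 3.

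Cells were placed in classes by the mean level of fixed marker genes. Absorptive-like cells were those scoring for Slc26a3, Krt20, Car4 and 9 more colonocyte genes, and made up 2.76, 5.42, 5.54 and 5.39% of cells in colon samples 1 to 4 against 9.66, 18.5, 40.9 and 31.1% in cecum samples 1 to 4. The cecum held more of them in every sample, and its samples were far apart. Dividing cells, gated on 18 genes of mitosis and 20 of DNA synthesis, were 17, 13.7, 13.5 and 8.47% in colon and 29.9, 27.5, 25.1 and 22.9% in cecum. They were more frequent in every cecal sample. Undifferentiated non-dividing cells, gated on stem cell genes such as Lgr5 and Slc12a2, were 54.4, 45.0, 43.9 and 46.1% in colon and 27.6, 27.0, 11 and 17.2% in cecum. Here every colon sample was above every cecal sample. Tuft-like cells, the chemosensory cells of the epithelium, averaged 2.28 ± 0.519% in colon and 0.513 ± 0.433% in cecum, also without overlap.

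For these 4 classes an exact two-sided permutation test gave p = 0.0286, the smallest that 4 against 4 allows, and p = 0.05 adjusted over the 7 shares, which is at and not under the threshold. Goblet-like cells averaged 9.27 ± 2.69% in colon and 6.26 ± 0.718% in cecum (exact permutation p = 0.0857), and the groups overlapped. Enteroendocrine-like cells averaged 0.438 ± 0.223% and 0.512 ± 0.296% (exact permutation p = 0.714), and cells in no class 22.7 ± 4.83% and 20.6 ± 3.25% (exact permutation p = 0.571). The sort took CD44-positive and CD44-negative cells 1:1, so these are shares after the sort and not of the tissue. A gate at 2 times each score turned the difference in goblet-like cells from 3.01 to -0.536 percentage points and took that in undifferentiated cells from 26.7 to 6.33, that in dividing cells from -13.2 to -8.70 and that in ungated cells from 2.13 to 13.3. The classes are ranges of a score: 23 of 159 colon and 39 of 669 cecal absorptive-like cells lay less than 0.1 above the gate, and their median score was 1.48 in colon and 2.05 in cecum. At a score of 2 or more stood 18.9% of the colon and 53.8% of the cecal absorptive-like cells. Doublets were not called. In the sums over all cells, fewer cells of a class and less RNA per cell cannot be told apart, so many of the results that follow are also given within classes. Those given only over all cells keep this limit.

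**Figure D2:**
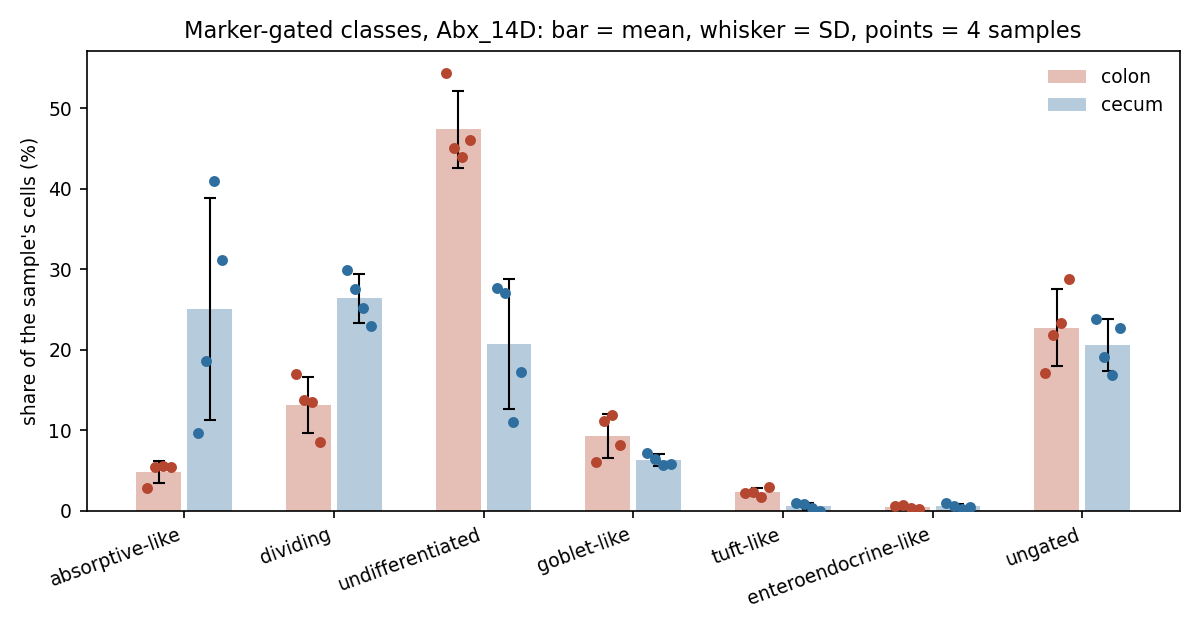
Share of each sample's cells in each marker-gated class (y axis, percent), with bars for the mean, whiskers for the SD and points for the 4 samples of colon (red) and cecum (blue). Absorptive-like and dividing cells are higher in cecum and undifferentiated and tuft-like cells higher in colon without overlap, after a sort that fixed the balance of CD44-positive and CD44-negative cells.

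Within classes, 4 had enough cells in all 8 samples to be tested, with at least 20 cells per sample. Across the 8629 genes tested in all 4, 3404 were called in at least 1 class, 151 were higher in colon in all 4 and 68 were lower in all 4. The weakest of the 4 fitted log2 fold changes was 5.77 for Thbs4 and 4.91 for B3gnt7 on the colon side. On the cecal side it was -3.24 for 9130221F21Rik and -2.24 for Gal3st2c. St3gal5, Car1 and Apob (the structural protein of chylomicrons) were also lower in colon in all 4 classes, with weakest values of -2.05, -1.94 and -2.24. St3gal6, a sialyltransferase, and B3galt5, a galactosyltransferase, were higher in colon in all 4, by at least 4.71 and 4.13. By contrast 86 genes were called in opposite directions in 2 classes.

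In absorptive-like cells 9020 genes were tested, with 1264 higher in colon (14.0%) and 531 lower (5.89%). The split depended on scaling: with trimmed-mean (TMM) scaling 962 were higher and 900 lower, and the median over all genes went from 0.17 to 0.013. The leading colon genes included a water channel, a chloride channel, a proton pump and a transglutaminase. Aqp4, a water channel, was at 329, 546, 1007 and 1070.0 CPM in colon samples 1 to 4 and at 4.52, 4.91, 11.3 and 7.91 CPM in cecum samples 1 to 4. Every colon sample was far above every cecal one (log2 fold change 6.45 ± 0.40, adjusted p = 1.49e-11). Ano1, a calcium-activated chloride channel, averaged 209 ± 76.7 CPM in colon and 2.67 ± 2.40 CPM in cecum (6.29 ± 0.37). Tgm3 averaged 255 ± 82.7 CPM and 1.08 ± 0.736 CPM; its log2 fold change of 8.01 ± 0.40 ran from 7.25 without cecum sample 3 to 8.81 without cecum sample 4. Atp12a had 468 counts in colon against 3 in cecum, a depth-scaled ratio of 527 (exact 95% interval 179 to 2563). Robo2, a guidance receptor, had 117 against 1 (ratio 395, interval 69.5 to 15731). Hoxb13 was higher by 6.68 ± 0.54.

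Transport genes of absorptive-like cells split between the tissues. Kcnq1, a potassium channel subunit, averaged 216 ± 71.8 CPM in colon and 81.0 ± 18.9 CPM in cecum (1.41 ± 0.27). Slc1a1, a glutamate and aspartate carrier, averaged 97.2 ± 6.27 CPM and 3.26 ± 2.39 CPM (5.17 ± 0.32). Slc7a8, a neutral amino acid exchanger, differed by 3.48 ± 0.44, and Slc15a1, the peptide transporter PEPT1, by 3.70 ± 0.68 (4.61 without cecum sample 1). Of 18 amino acid and peptide transport genes tested in this class, 6 were higher in colon and 0 lower. Towards cecum the class was led by genes with few colon counts. Susd4, a complement regulator, had 318 cecal counts against 1 (ratio 94.2, interval 16.8 to 3733). The sulfate transporter Slc26a1 had 261 against 3 (ratio 25.8, interval 8.72 to 126). Without colon sample 1 the fitted log2 fold change went from -6.27 to -8.56 for Susd4 and from -4.61 to -8.26 for Slc26a1. 1700057G04Rik had 598 against 3 and Gm36582 358 against 2, for ratios of 59.1 (interval 20.1 to 287) and 53.0 (interval 14.6 to 439.6). Ly6m averaged 109 ± 53.4 CPM in cecum and 1.72 ± 2.01 CPM in colon (-5.92 ± 0.83, ranging from -5.33 without colon sample 4 to -6.90 without colon sample 1). Cmah, which makes N-glycolylneuraminic acid, averaged 74.6 ± 48.4 CPM and 2.60 ± 2.22 CPM (-4.71 ± 0.67, and -5.75 without colon sample 4).

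In goblet-like cells 10369 genes were tested, with 552 higher in colon (5.32%) and 665 lower (6.41%). TMM scaling turned this balance, with 705 higher and 512 lower, and without cecum sample 4 the number called in all was 764. Mptx1 was at 655, 2672, 2312 and 3253 CPM in colon samples 1 to 4 and at 1.21, 11.6, 4.42 and 8.12 CPM in cecum samples 1 to 4. It was the most abundant gene among the leaders and was low only in colon sample 1 among the colon samples (log2 fold change 8.55 ± 0.71, adjusted p = 2.05e-07). The leading 5 colon genes had 0 counts in the cecal goblet-like cells, so only lower bounds against 3 counts over the group can be given. Spink1, a trypsin inhibitor, was at least 69.5-fold higher and Gcnt1, which starts core 2 O-glycan branches, at least 55.6-fold. The matricellular protein Ccn3 was at least 39.7-fold higher, the delta-catenin Ctnnd2 at least 38.3-fold and the phospholipase Pla2g2f at least 32.3-fold. Without the high-mitochondrial samples, the adjusted p of Ccn3 was 0.0507.

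Glycan-building genes stood out by size in this class. B3gnt7 averaged 229 ± 90.2 CPM in colon and 0.716 ± 0.846 CPM in cecum (8.23 ± 0.48, and 8.83 without cecum sample 2). St3gal6 averaged 743 ± 109 CPM and 9.0 ± 3.66 CPM, and St6galnac6, another sialyltransferase, 300.2 ± 42.9 CPM and 8.56 ± 4.5 CPM. St3gal5 went the other way, at 131 ± 19.2 CPM in cecum and 5.21 ± 4.27 CPM in colon. Of 33 glycosylation genes tested here, 13 were higher and 5 lower in colon (3 lower without the high-mitochondrial samples; median 0.45, against -0.11 over all genes). Of 13 mucin and goblet cargo genes, 6 were higher and 2 lower: Sval1 was higher by 6.44 ± 0.50 and Reg4, a regenerating-family lectin, was lower, at -2.82 ± 0.30. Muc4, a membrane mucin, averaged 512 ± 87.0 CPM in colon and 178 ± 36.7 CPM in cecum (1.52 ± 0.23). Duox2, which makes hydrogen peroxide at the surface, averaged 65.7 ± 20.1 CPM and 5.59 ± 3.66 CPM (3.65 ± 0.46).

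Towards cecum in goblet-like cells, Cyp2c65, a cytochrome P450, averaged 146 ± 54.3 CPM in cecum and 5.28 ± 2.18 CPM in colon (-4.65 ± 0.55). Nek10 was lower in colon, at -4.34 ± 0.69, as was 5430427M07Rik, at -4.81 ± 0.61, the latter -5.52 without colon sample 1. Muc16 had 61 cecal counts against 3, a depth-scaled ratio of 43.9 (exact 95% interval 14.3 to 219). Its fitted log2 fold change went from -5.34 to -8.03 without colon sample 1. St3gal5 differed by -4.48 ± 0.37 and by -5.39 without colon sample 1.

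In dividing cells 11427 genes were tested, with 1079 higher in colon (9.44%) and 1073 lower (9.39%). The class was made up differently in the tissues, with a median mitosis score of 0.279 in colon and 0.709 in cecum and a median stem cell score of 1.03 and 0.745, while the DNA synthesis scores were 0.497 and 0.478; their part in the results was not tested. Slc37a2 was at 280.2, 537, 424 and 429 CPM in cecum samples 1 to 4 and at 13.2, 13.2, 18.7 and 2.49 CPM in colon samples 1 to 4. The tissues stood far apart in every sample (log2 fold change -5.08 ± 0.36, adjusted p = 2.66e-09). Rgs17 was at 65.3, 44.7, 24.4 and 70.6 CPM in colon and at 0.672, 0.307, 0.593 and 0.366 CPM in cecum, a difference of 6.59 ± 0.48 without overlap. Nxpe2 was higher by 6.62 ± 0.54, Thbs4 by 6.33 ± 0.46 and Ctnnd2 by 6.11 ± 0.44. Hoxb13 had 283 counts in colon and 2 in cecum, a depth-scaled ratio of 185 (exact 95% interval 50.8 to 1537). Gm16341 was higher by 5.92 ± 0.82, and by 4.66 without colon sample 3. Towards cecum stood also Gal3st2c (-4.90 ± 0.32, and -5.69 without colon sample 1), St3gal5 (-3.94 ± 0.23), Muc16 (-3.64 ± 0.26) and the lipid acyltransferase Mboat2 (-3.60 ± 0.25).

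In undifferentiated non-dividing cells 11705 genes were tested, with 980 higher in colon (8.37%) and 1480 lower (12.6%). With TMM scaling 1272 were higher and 1128 lower. Nxpe2 was at 159, 222, 239 and 134 CPM in colon samples 1 to 4 and at 1.62, 0.530, 0.797 and 0 CPM in cecum samples 1 to 4. It was detected at trace level in cecum (log2 fold change 7.78 ± 0.38, and 8.53 without cecum sample 1). Gm16341 and Npy1r, a receptor for neuropeptide Y, had 0 counts in cecum and were at least 37.6-fold and 36.1-fold higher. Pclo and Rims4, known as proteins of the synaptic active zone, had 810 and 479 counts in colon against 1 each, ratios of 188 (interval 33.6 to 7429) and 111 (interval 19.8 to 4397). Hoxb13 had 607 counts against 2 (ratio 70.4, interval 19.4 to 583). Ffar2, a receptor for short-chain fatty acids, averaged 11 ± 1.23 CPM in colon and 0.492 ± 0.985 CPM in cecum.

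Towards cecum the same class was led by Gal3st2c, at 211, 252, 323 and 362 CPM in cecum samples 1 to 4 and 13.5, 5.25, 7.55 and 5.51 CPM in colon samples 1 to 4. Colon sample 1 was the highest of the colon samples (-4.99 ± 0.30, and -5.59 without it). Other leaders were Adgrl3, an adhesion G-protein-coupled receptor (-4.79 ± 0.63), 9130221F21Rik (-4.34 ± 0.40), St3gal5 (-4.31 ± 0.38) and Cyp2c66 (-4.09 ± 0.41). Without colon sample 1 these were -6.20, -5.31, -5.22 and -4.72.

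Genes were next grouped by function, beginning with ion and water transport. Over all cells, 18.5% of all genes tested were higher and 16.5% lower, and the count of each list stands against these shares. Counts under an alternative stand against all genes called in that alternative. Without the high-mitochondrial samples 1640 of 14487 genes were higher and 1221 lower over all cells. In absorptive-like cells 853 of 9148 were then higher and 237 lower. Chloride, bicarbonate and guanylin genes were mostly lower in colon in the sums over all cells, with 13 of 22 lower and 4 higher (median -0.67). Slc26a3, the chloride-bicarbonate exchanger of colonocytes, was at 266, 722, 1687 and 1509 CPM in cecum samples 1 to 4 and at 62.6, 78.9, 95.7 and 83.3 CPM in colon samples 1 to 4. Cecum samples 3 and 4 were the high ones, as for Car1, and the share of absorptive-like cells was also highest there; their part in this result was not tested. Within absorptive-like cells 6 of 16 such genes were lower and 3 higher, and Slc26a3 itself served in the gate. Slc4a7, a sodium-bicarbonate cotransporter, differed there by -1.50 ± 0.20 and Clca4a by -4.40 ± 0.40. Of 24 sodium and potassium channels and exchangers tested over all cells, 7 were higher and 5 lower, led by Slc9a3, the apical sodium-proton exchanger, at -2.62 ± 0.50. The lower ones were 3 when cecum sample 3, colon sample 1, colon sample 2 or the high-mitochondrial samples were left out. Within absorptive-like cells 5 of 17 were higher and 2 lower, with 4 lower under TMM scaling and 0 without the high-mitochondrial samples. Among 4 aquaporins tested over all cells, Aqp4 was higher (2.14 ± 0.20) and Aqp8 lower (-3.56 ± 0.60). Aqp1 averaged 96.6 ± 17.3 CPM in colon and 64.5 ± 17.6 CPM in cecum, and Aqp11 20.2 ± 2.65 CPM and 26.1 ± 3.91 CPM, and neither passed the test.

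Short-chain fatty acid genes moved in both directions, with 6 of 12 higher and 4 lower. Slc5a8, the sodium-coupled carrier of butyrate and nicotinate, was at 235, 223, 204 and 227 CPM in colon samples 1 to 4 and at 65.9, 78.7, 91.3 and 82.4 CPM in cecum samples 1 to 4. Slc16a1, the proton-coupled carrier MCT1, was at 128, 130.2, 129 and 171 CPM in colon and at 356, 295, 436 and 464 CPM in cecum. The 2 carriers thus stood in opposite order, each without overlap (1.48 ± 0.14 and -1.47 ± 0.14). Acsm3, a medium-chain acyl-CoA synthetase, was higher in colon by 2.71 ± 0.23. Among 24 genes for nicotinic acid and NAD, 6 were higher and 3 lower (median -0.069). Slc12a8 averaged 165 ± 65.1 CPM in colon and 49.0 ± 17.7 CPM in cecum, and Nmnat2, an NAD-making enzyme, 2.78 ± 0.689 CPM and 14.3 ± 3.45 CPM.

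Most genes of oxidative phosphorylation were lower in colon over all cells and in 3 of the 4 classes. Of 37 nuclear genes, 34 were lower and 0 higher in the sums over all cells, with a median of -0.74 against 0.018 over all genes. Cyc1, of respiratory complex III, was at 81.5, 71.7, 73.6 and 94.3 CPM in colon samples 1 to 4 and at 182, 124, 175 and 222 CPM in cecum samples 1 to 4. The groups did not overlap (-1.13 ± 0.19, adjusted p = 2.01e-04). Atp5b, the beta subunit of ATP synthase, averaged 553 ± 55.4 CPM and 955 ± 154 CPM. Within classes 30 of 37 were lower in undifferentiated, 24 in goblet-like and 21 in dividing cells, and 0 in absorptive-like cells (edgeR; 3 of 37 at an unadjusted p under 0.05, and 2 lower with TMM scaling), where the median was 0.018. The share of mitochondrial transcripts was 0.224, 0.340, 0.597 and 0.655% in cecum samples 1 to 4 and 0.213% to 0.386% in colon. By this share cecum samples 1 and 2 lay within the colon range and samples 3 and 4 above it. The summed level of the 37 genes was 6325, 4961, 6850 and 8303 CPM in cecum samples 1 to 4. In colon samples 1 to 4 it was 4016, 3804, 3696 and 4455 CPM. The share and the summed level did not rank the samples alike. Without cecum sample 4 the count was 21 over all cells, 7 in goblet-like and 12 in dividing cells. Without the high-mitochondrial samples it was 12 over all cells, 11 in undifferentiated, 4 in goblet-like and 8 in dividing cells. Fewer genes of any kind were called lower without those samples. They were 1221 of 14487 over all cells, 187 of 11013 in goblet-like and 342 of 11534 in dividing cells. The count of the list in goblet-like cells was 10, 11 and 14 without colon samples 2, 3 and 4. The part of mitochondrial transcripts in the result was not tested.

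Fatty acid oxidation and ketone body genes were 16 of 30 lower and 1 higher over all cells, with 10 lower without cecum sample 3 or without cecum sample 4 and 5 without the high-mitochondrial samples. Bdh1, which makes the ketone body beta-hydroxybutyrate, averaged 65.3 ± 9.02 CPM in colon and 124 ± 16.2 CPM in cecum, and the coactivator Ppargc1a was the higher one (1.07 ± 0.13). In absorptive-like cells 5 of 29 were higher and 2 lower. Cholesterol synthesis had 10 of 25 lower and 0 higher over all cells, and 2 lower without the high-mitochondrial samples. Of 23 genes of endoplasmic reticulum stress, 9 were lower, the chaperone Calr among them (-0.73 ± 0.14), and 5 higher (3 when cecum sample 4, colon sample 3 or colon sample 4 was left out, and 2 without the high-mitochondrial samples). Of 19 polyamine and urea cycle genes 5 were higher (3 without colon sample 1 or without the high-mitochondrial samples) and 2 lower, with Maoa, which breaks down monoamines, at 368 ± 67.3 CPM in colon and 1143 ± 491 CPM in cecum.

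Genes of xenobiotic metabolism were mostly higher in cecum. Of 45 cytochrome P450, carboxylesterase and conjugation genes tested over all cells, 31 were lower in colon and 3 higher (median -0.87). Ces1g, a carboxylesterase, was at 127, 133, 83.2 and 102 CPM in cecum samples 1 to 4 and at 22.9, 23.3, 12.7 and 17 CPM in colon samples 1 to 4. Cyp2c66 averaged 27.1 ± 3.42 CPM in cecum and 2.91 ± 0.342 CPM in colon, while its relative Cyp2c68 averaged 3.07 ± 0.497 CPM and 28.9 ± 9.19 CPM, the opposite order. Both families hold near-identical copies, between which the authors' counting may split reads. The lower genes were 21 of 40 in undifferentiated, 20 of 41 in dividing, 16 of 41 in absorptive-like and 10 of 36 in goblet-like cells. In absorptive-like cells Ces2e differed by -2.01 ± 0.18, Cyp2j6 by -1.76 ± 0.18 and Cyp3a13 by -1.20 ± 0.21. Retinoid genes were mixed, 4 of 17 higher and 5 lower: Adh1, an alcohol and retinol dehydrogenase, was higher by 2.90 ± 0.18, and Aldh1a1, which makes retinoic acid, was lower, at -2.53 ± 0.32.

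Several genes of fat and bile acid uptake were higher in cecum. Apob was at 196, 284, 559 and 378 CPM in cecum samples 1 to 4 and at 41.7, 29.5, 43.1 and 36.7 CPM in colon samples 1 to 4, without overlap (-3.23 ± 0.32). Of 20 dietary lipid genes 9 were lower and 2 higher in colon over all cells, and 9 of 15 lower and 0 higher in absorptive-like cells. With absorptive-like cells of both tissues limited to scores from 1 to 2, 4 of 14 were lower. Of all genes 379 of 8523 were lower in colon at those scores and 830 higher. Of 12 bile acid genes 6 were lower and 2 higher, with Slc10a2, the ileal bile acid transporter, at 139.9 ± 93.7 CPM in cecum and 12.3 ± 6.04 CPM in colon. The 16 ileal enterocyte markers, Slc10a2 and Fabp2 among them, summed to 304 to 1079 CPM in cecum and 138 to 158 CPM in colon. In cecum 2 of the 16 were at 0, and the part of ileal cells in these results was not tested. Within absorptive-like cells Slc10a2 differed by -1.70 ± 0.35, Fabp2 by -1.86 ± 0.21 and Apob by -2.31 ± 0.23.

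Of 23 brush border structure genes 13 were lower and 2 higher over all cells, led by Espn, an actin bundler (-2.43 ± 0.33), and in absorptive-like cells 10 of 21 were lower and 0 higher. There 5 were lower without the high-mitochondrial samples, and 5 were lower and 1 higher at scores from 1 to 2, where the summed level went from 9118 and 13465 CPM in colon and cecum to 7845 and 8883 CPM. Of 13 brush border peptidases and hydrolases 5 were lower and 3 higher: Mme, the peptidase neprilysin, averaged 14.4 ± 2.16 CPM in colon and 0.339 ± 0.118 CPM in cecum, and Enpep, an aminopeptidase, 4.49 ± 1.36 CPM and 28.9 ± 18 CPM. Amino acid and peptide transport had 7 of 22 higher and 2 lower, sugar transport and fructose 3 of 11 and 2, and organic cation and carnitine transport 1 of 11 and 4. Among 21 genes for iron, calcium, magnesium and zinc tested over all cells, 12 were lower (7 without the high-mitochondrial samples) and 2 higher. In absorptive-like cells 7 of 19 were lower (4 without the high-mitochondrial samples) and 4 higher (2 at scores from 1 to 2). Over all cells Tfrc, the transferrin receptor, averaged 497 ± 45.7 CPM in colon and 1075 ± 175 CPM in cecum. Slc40a1, the iron exporter ferroportin, stood in the opposite order, at 45.5 ± 6.06 CPM and 14.4 ± 4.67 CPM.

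Genes of the mucus barrier were more often higher in colon. Over all cells 12 of 22 mucin and goblet cargo genes were higher and 4 lower, and 19 of 36 glycosylation genes were higher and 8 lower (medians 1.04 and 0.62). Fut9, a fucosyltransferase, was at 208, 249.9, 258 and 198 CPM in colon samples 1 to 4 and at 12.1, 8.43, 6.10 and 8.37 CPM in cecum samples 1 to 4. St3gal6 averaged 282 ± 60.5 CPM in colon and 5.84 ± 0.632 CPM in cecum. Neither overlapped, with log2 fold changes of 4.72 ± 0.29 and 5.60 ± 0.30. Glycosylation genes had more members higher than lower in each class, from 10 higher and 5 lower in absorptive-like cells (3 lower without colon sample 4 or without the high-mitochondrial samples) to 15 and 6 in dividing cells (3 lower without colon sample 1). Antimicrobial genes were 7 of 19 higher and 5 lower (3 without cecum sample 3, 2 without the high-mitochondrial samples), with Duox2 higher by 3.68 ± 0.37 and Saa3 lower, at -4.88 ± 0.75.

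Several genes of antigen presentation and several interferon-induced genes were higher in colon. Of 8 MHC class II genes tested, 6 were higher and 0 lower over all cells. Cd74, the invariant chain, was at 259, 219, 109.9 and 107 CPM in colon samples 1 to 4 and at 56.3, 39.2, 29.3 and 43.3 CPM in cecum samples 1 to 4. Ciita, the master activator of the class, averaged 14.9 ± 5.95 CPM in colon and 3.49 ± 1.66 CPM in cecum (2.14 ± 0.40). Both sets stood apart without overlap. In dividing cells 5 of 7 were higher, H2-Ab1 by 2.43 ± 0.37 and H2-Aa by 2.94 ± 0.51. The summed level of the 22 immune markers, which was 16.9 to 21.9 CPM in colon and 6.88 to 51.9 CPM in cecum, overlapped between the tissues. Only 3 of these markers were tested over all cells, with 2 higher in colon and 1 lower. Within classes 1 was tested in dividing cells and was higher, and 1 in goblet-like cells and was lower. In undifferentiated cells 1 was tested and not called. The part of immune cells in these results was not tested.

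In dividing cells 25 of 42 interferon-induced genes were higher in colon and 0 lower, with a median of 1.03 against -0.054 over all genes. Their summed level was 1809, 1834, 1499 and 1372 CPM in colon samples 1 to 4 and 1233, 1192, 869.8 and 919 CPM in cecum samples 1 to 4, so the groups did not overlap. Ifi27l2b, of the Ifi27 family and with a close paralogue, was higher by 1.98 ± 0.22, Trim30a by 2.48 ± 0.35, the antiviral enzyme gene Oas1a by 1.67 ± 0.25 and the GTPase Gbp6 by 2.31 ± 0.41. Undifferentiated cells had 16 of 38 higher and 1 lower, absorptive-like cells 19 of 47 and 0, goblet-like cells 3 of 45 and 1, and all cells together 16 of 50 and 3. The absorptive-like count was 10 with TMM scaling, 11 without cecum sample 4 or without colon sample 3, 29 without colon sample 4 and 39 at scores from 1 to 2. Without the high-mitochondrial samples, the counts were 13 higher in dividing and 3 in absorptive-like cells. Of all genes 692 of 11534 and 853 of 9148 were then higher in these classes.

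Of 29 gasdermin, inflammasome and innate sensor genes 8 were higher and 5 lower over all cells, with 0 lower without the high-mitochondrial samples. Naip6, a sensor of bacterial flagellin with a near-identical copy in Naip5, averaged 277 ± 35.4 CPM in colon and 135 ± 27.2 CPM in cecum, and Tlr4, the receptor of bacterial endotoxin, 31.4 ± 3.08 CPM and 13.8 ± 4.29 CPM. The genes that did not pass the test were Gsdmc4, Nlrp6, Nlrp1b, Nlrc4, Naip2, Aim2, Pycard, Casp4, Casp8, Tlr1, Tlr2, Tlr3, Tlr5, Nod1, Nod2 and Myd88. Nlrp6, the most abundant of these, averaged 244 ± 71.6 CPM and 270.3 ± 51.8 CPM (log2 fold change -0.15 ± 0.20). Of 24 claudin and junction genes 5 were higher and 4 lower. Cldn2, a pore-forming claudin, averaged 147 ± 23.6 CPM in colon and 52.7 ± 17.3 CPM in cecum, Cldn8, a sealing claudin, 18.7 ± 1.14 CPM and 4.13 ± 1.84 CPM, and the cadherin Cdh17 271 ± 4.93 CPM and 582 ± 191 CPM. Cdh1, E-cadherin, averaged 800.3 ± 59.3 CPM and 744 ± 122 CPM and did not pass the test (adjusted p = 0.569). Others that did not pass it were Cldn4, Cldn7, Cldn15, Cldn23, Tjp1, Tjp3, Marveld2, F11r, Cgn, Epcam, Jup, Pkp2 and Cdhr1.

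Among signalling genes over all cells, Wnt and stem cell genes had 12 of 32 higher (7 without the high-mitochondrial samples) and 3 lower, with Axin2, a Wnt target, at 1.10 ± 0.20 and the receptor Lgr4 at 0.58 ± 0.12. Undifferentiated cells, which carry such genes, were more frequent in colon by the gate above. Within that class 4 of 21 were higher and 2 lower. Without the high-mitochondrial samples 0 were higher there, and leaving out single samples gave 1 to 4 higher. BMP and hedgehog genes had 6 of 25 higher and 7 lower (3 lower without cecum sample 3 or without colon sample 1, 4 without cecum sample 4, and 1 without the high-mitochondrial samples), and Bmp3 was at 1.93 ± 0.23. Notch and secretory fate genes had 9 of 25 higher and 2 lower, with Creb3l1, a factor of secretory cells, at 1.81 ± 0.18. The higher ones were 5 without cecum sample 4 or without colon sample 3, and 3 without the high-mitochondrial samples. Within classes 5 of 11 were higher and 0 lower in absorptive-like cells, and 2 of 20 and 1 in goblet-like cells. In dividing cells 3 of 19 were higher and 1 lower, and in undifferentiated cells 3 of 19 and 2. Regeneration and fetal-like genes had 10 of 18 higher and 3 lower, with Anxa3 at 4.34 ± 0.40 and Ly6a, which encodes Sca-1, at 2.27 ± 0.33. In dividing cells 8 of 15 were higher and 2 lower, and Anxa3 differed by 4.66 ± 0.54 (3.91 without colon sample 3). Circadian clock genes had 8 of 18 higher (5 when cecum sample 1 or 2, colon sample 1 or 3, or the high-mitochondrial samples were left out) and 4 lower, with Arntl at -0.70 ± 0.11. Enteroendocrine hormone genes had 4 of 15 higher and 2 lower. Of 34 genes of the immediate early and dissociation response 4 were higher and 0 lower over all cells, Nr4a1 (2.36 ± 0.38) and Dnajb1 (1.03 ± 0.25) among them, and 9 of 28 were higher in absorptive-like cells (5 without colon sample 4). Without the high-mitochondrial samples these were 9 over all cells and 15 in absorptive-like cells.

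**Figure D3:**
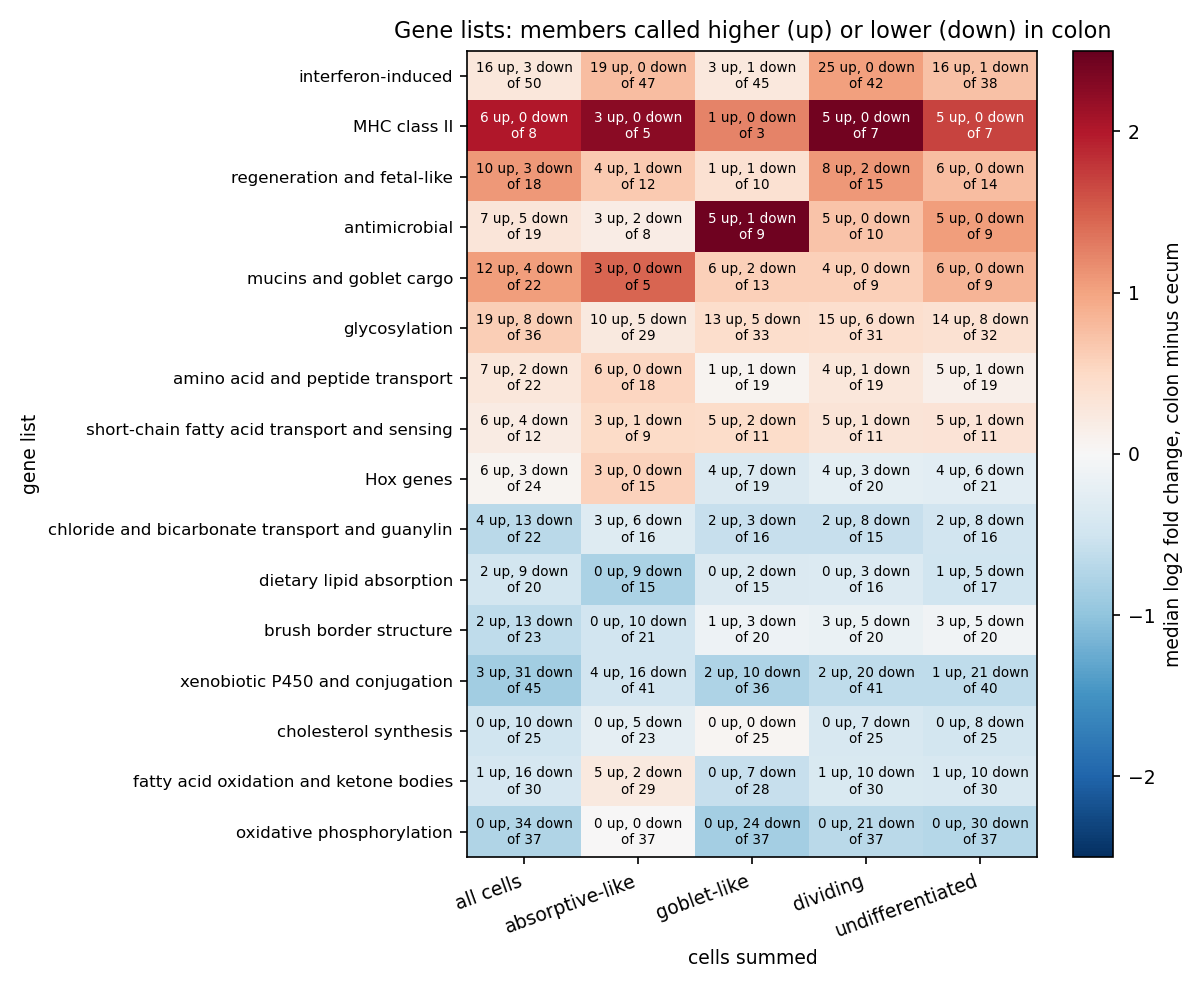
Median log2 fold change of colon over cecum (colour, white at 0) for 16 of the 38 gene lists (y axis) in all cells and in 4 classes (x axis), with the number of tested genes called higher (up) or lower (down) in each cell. The 16 lists were picked after their values were seen; MHC class II is higher in colon and xenobiotic metabolism lower across the columns, and oxidative phosphorylation is near 0 in absorptive-like cells.

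The difference between colon and cecum was compared between absorptive-like and dividing cells of the same 8 samples, with the sample as a block. Of 11296 genes, 1349 (11.9%) had a higher log2 fold change of colon over cecum in absorptive-like than in dividing cells. For 351 (3.11%) it was lower. A gene so counted need not be higher in colon in either class. With TMM scaling the 2 counts were 408 and 727, so the balance depended on scaling. Without cecum sample 3 the 2 directions together were 1045. Aqp4 was higher in colon in both classes, by 6.45 in absorptive-like and 1.01 in dividing cells, a difference of 5.19 ± 0.38. Esrrg, an orphan nuclear receptor of oxidative metabolism, averaged 195 CPM in colon and 14.3 CPM in cecum in absorptive-like cells, but 561 CPM and 414 CPM in dividing cells. The differences of 3.73 and 0.44 were themselves 3.20 ± 0.19 apart (adjusted p = 2.04e-08). Fads2, a fatty acid desaturase, differed by 3.51 ± 0.23 between the classes, Myo5c, a myosin motor, by 2.58 ± 0.19 and Ppp1r1b, a phosphatase inhibitor, by 2.64 ± 0.20.

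Genes that differed the other way included 2 sialyltransferases. St3gal1 was lower in colon in absorptive-like cells, at 31.9 CPM against 157 CPM, and higher in colon in dividing cells, at 11.9 CPM against 1.94 CPM. Its 2 fold changes were -4.90 ± 0.45 apart (adjusted p = 1.48e-06). St6galnac6 was higher in colon by 4.12 in dividing cells, while in absorptive-like cells its value of 0.40 did not pass the test. Vldlr, a lipoprotein receptor, averaged 4.40 CPM in colon and 75.4 CPM in cecum in absorptive-like cells, against 9.33 CPM and 6.29 CPM in dividing cells (-4.84 ± 0.38 apart). Fgf12 differed by -4.18 ± 0.36 (-5.02 without colon sample 1) and the nuclear RNA Neat1 by -2.26 ± 0.22. Colon absorptive-like cells lay nearer to the gate than cecal ones, and with both limited to scores from 1 to 2 the number of genes called was 448.

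**Figure D4:**
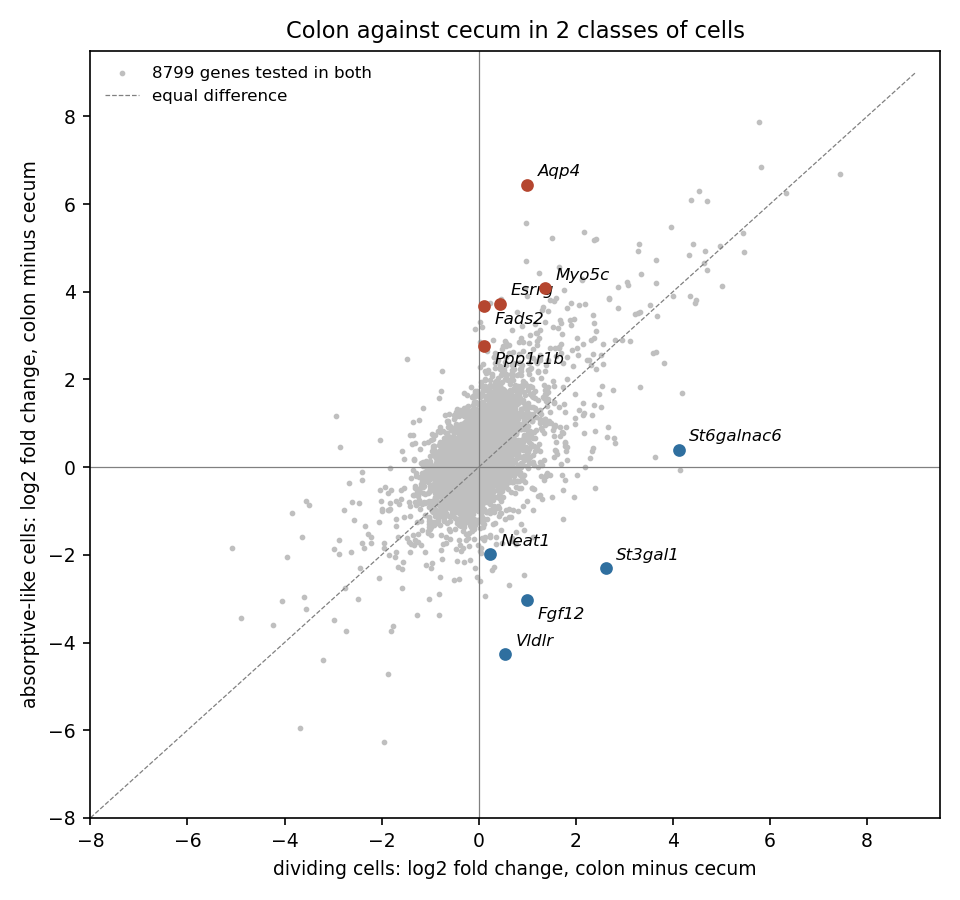
Log2 fold change of colon over cecum in absorptive-like cells (y axis) against that in dividing cells (x axis), each grey point 1 of 8799 genes tested in both, with the equal-difference line dashed. The 5 red genes lie above the line, with Aqp4 highest, and the 5 blue genes below it.

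The same contrast of tissues in GF samples is set beside that of the Abx_14D samples. All 23 leading genes were called in GF in the same direction. Hoxb13 differed by 6.36 in GF, Nxpe2 by 6.6, Gal3st2c by -3.90 and Car1 by -3.79 on the log2 scale. Of all 13945 genes tested over all cells, 4876 were called after Abx_14D and 3292 in GF. Of the 4876, 56.4% were also called in GF in the same direction. Of the 3292, 83.5% were also called after Abx_14D in the same direction. A direct test of the difference between the 2 contrasts called 0 of 13945 genes (0%) by edgeR, with 776 at an unadjusted p under 0.05 and a smallest adjusted p of 0.126, while DESeq2 called 25. Values that stood apart without passing that test included Ly6m, at -6.6 after Abx_14D and -2.69 in GF, Dnah5, at 5.67 and 2.84, and Bmp3, at 1.93 and 0.42. Cd74 was at 2.06 and 1.21, and H2-DMb1 at 2.22 and 0.49. The values of Gsdmc4, a gasdermin, were -0.32 and -1.70. These 6 genes were chosen after their values were seen, and a p that misses the threshold does not show that the 2 contrasts are alike.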

How the data were processed

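The authors deposited 1 matrix of raw transcript counts per cell and gene (unique molecules, not normalised) from a split-pool kit (Parse Evercode WT), in 8 sublibraries that each hold all conditions. The cell table's sample names give the groups. Per the submitters' processing notes, build mm39 and Seurat were used; aligner and annotation: not given in the sources used here. Here counts were summed per loaded sample, over all cells and within marker-gated classes. Gates used the mean of log(1 + counts per 10000) of fixed markers, with at least 20 cells per sample and class. Sums were tested with edgeR 4.0.16 in R 4.3.3 (quasi-likelihood, library-size scaling, filter on low counts, Benjamini-Hochberg over all genes tested, threshold 0.05), with the 8 Abx_14D and 8 GF samples in 1 fit. DESeq2 1.42.0, TMM scaling, no filter on low counts, stricter gates, deeper cells and leaving out samples were alternatives. The scripts were tested on simulated data.

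Genes named are the 12 largest differences each way over all cells, and 6 each way within a class, among called genes with a mean of at least 20 CPM in the higher tissue and no overlap between tissues, plus up to 4 called members of a list by smallest adjusted p, the uncalled members of the Hox, aquaporin, junction and gasdermin lists, and 5 each way for the test between classes. For Hox genes all called members are named. Some genes that met these rules are not reported here. The members, gene lists and tests were chosen with earlier results of these data known. The labels' numbers 1 to 4 are shared by both tissues. Same-numbered colon and cecal samples deviated together, with correlations across 13290 genes of 0.253, 0.137, 0.182 and 0.247. Some samples of unlike number also did, at 0.225 for colon sample 1 with cecum sample 2 and 0.157 for colon sample 4 with cecum sample 3. By the rule used the numbers were taken as pairs, and a fit with the number as a block was added. The main fits and the test of cell shares did not use the pairs. The correlations do not tell such pairs from the split of samples 1 and 2 from 3 and 4. No pairing is stated in the labels. Replicates differed well beyond sampling noise. Doublets were left in. Intervals and floors cover counting error only. Fits of genes with few counts in 1 tissue could move widely with a single sample. In undifferentiated cells Pclo went from 7.21 to 10.1 without cecum sample 3 and Rims4 from 6.74 to 9.66 without cecum sample 2. Hoxb13 went from 6.24 to 10.1 there without cecum sample 4, and from 7.44 to 9.50 in dividing cells without cecum sample 3. Enteroendocrine-like and tuft-like cells were too few in cecum for a gene test. Positions of promoters are from RefSeq on GRCm38.p6, since no mm39 annotation was used here.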

Additional observations from a re-analysis of the deposited data

Results flagged for a closer look

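Of 394 groups of 4 samples examined, 16 had 1 sample far from the other 3 by Dixon's 95% value; chance alone gives about 1 in 20. Colon sample 1 stood apart for 9130221F21Rik over all cells (6.31 CPM), for Gal3st2c (15.7 CPM) in dividing cells, for Slc4a7 in absorptive-like cells (297 CPM) and, on the low side, for Nr4a1 over all cells (25.8 CPM) and the share of absorptive-like cells (2.76%). Colon sample 2 was high for Cyp4f14 in absorptive-like cells (174 CPM). Colon sample 3 was high for Gm16341 in dividing cells (76.5 CPM) and for Ly6a over all cells (28.7 CPM). Colon sample 4 was low for Gal3st2c (13.3 CPM) and high for Slc16a1 (171 CPM) over all cells. Cecum sample 1 was high for Slc15a1 in absorptive-like cells (15.8 CPM) and for Muc4 in goblet-like cells (233 CPM), and cecum sample 2 was high for H2-Aa in dividing cells (4.29 CPM). Cecum sample 3 was low for Cyp2c68 over all cells (2.34 CPM) and for Ugt1a6a in goblet-like cells (203 CPM), and held the most transcripts of the cecal samples (15414170).

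The difference between colon and cecum itself differed between absorptive-like and dividing cells for 10 named genes, by a direct test with the sample as a block. On the log2 scale it was larger in absorptive-like cells by 3.20 for Esrrg, 3.51 for Fads2, 5.19 for Aqp4, 2.58 for Myo5c and 2.64 for Ppp1r1b. It differed by -3.72 for St6galnac6, -4.84 for Vldlr, -4.18 for Fgf12, -4.90 for St3gal1 and -2.26 for Neat1.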

How the results depend on the processing

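Of 207 results for named genes, 200 kept their direction and their side of the threshold in every alternative in which the gene was tested. None reversed in any of 3125 recomputed values, and 14 values lost the call. Most of these genes were picked for clear differences in the same data, so this does not describe calls in general. Of all calls over all cells, 98.4% were kept with TMM scaling and 53.1% without the high-mitochondrial samples. In goblet-like cells the latter kept 36.2%, and the stricter gate kept 30.3% in dividing cells. Without the 2 cecal samples (and 1 GF cecal sample of the same fit) above 0.5% mitochondrial transcripts, Psmb8 in absorptive-like cells had an adjusted p of 0.0508 by edgeR, and under the stricter gate Ugt1a6a in goblet-like cells had 0.108. Leaving out those samples also lowered the number of genes called to 2861 over all cells, 1090 in absorptive-like, 466 in goblet-like, 1034 in dividing and 1432 in undifferentiated cells, with fewer samples tested. Leaving out 1 sample at a time gave 3817 to 5365 genes over all cells, 1390 to 1885 in absorptive-like, 764 to 1407 in goblet-like, 1545 to 2391 in dividing and 1903 to 2507 in undifferentiated cells. For the difference between absorptive-like and dividing cells it gave 1045 to 1699, and scores from 1 to 2, an alternative chosen after seeing the data, gave 448. DESeq2 called 25 genes for the difference between GF and Abx_14D.

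The stricter gate gave 802 genes in goblet-like and 704 in dividing cells, with fewer cells. It changed the difference in shares from 3.01 to -0.536 percentage points for goblet-like cells, turning its sign, and to -8.70 for dividing, 6.33 for undifferentiated and 13.3 for ungated cells. Under it no colon sample had 20 absorptive-like cells and no cecal sample had 20 undifferentiated cells, so those fits and the test between classes were not run. With the replicate block, which takes same-numbered samples as pairs, 4745 genes were called over all cells, 2019 in absorptive-like, 1079 in goblet-like, 2344 in dividing and 2294 in undifferentiated cells. The block changed no call of a named gene. The number of cells in a class, as low as 30 in a colon sample for absorptive-like and 23 in a cecal sample for goblet-like cells, limits what could be called there.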
